A study of Homo sapiens with 42 samples.

Results

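The genes followed here set how fast glycolysis runs and whether its product enters the mitochondrion: PFKFB1, PFKFB2, PFKFB3 and PFKFB4, the pyruvate dehydrogenase kinases PDK1, PDK2, PDK3 and PDK4, and the catalytic subunits of pyruvate dehydrogenase phosphatase, PDP1 and PDP2. They were taken by gene symbol from every library, 10 of 60609 annotated genes. All 10 passed the filter on low counts in both batches, although PFKFB1 had only 0 to 23 reads in any library.

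The PFKFB enzymes both make and break down fructose bisphosphate in its regulatory form, a strong activator of phosphofructokinase and so of glycolysis, and PFKFB3 is the isozyme that mostly makes it. Pyruvate dehydrogenase turns pyruvate into acetyl-CoA; the PDK enzymes phosphorylate it and switch it off, and the PDP enzymes remove the phosphate and switch it on again. PFKFB3, PFKFB4 and PDK1 are known as genes that hypoxia-inducible factors (HIFs) induce when oxygen is scarce.

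RNA came from 786-O, a clear cell renal cell carcinoma line that lacks functional VHL, so that HIF-2α is not degraded, and that makes no functional HIF-1α. There were 42 polyA libraries in 2 batches, 3 per group. Batch 1 held the unmodified line (WT), 2 endogenous knock-ins and 6 lines with a transgene. In HIF-1b KIN (clone A21) and HIF-2a KIN (clone A31) both alleles of the endogenous locus carried V5 and HaloTag at the N-terminus, and each was 1 clone. The transgenic lines were made in the WT line, were selected with puromycin as stable populations, and expressed V5-HaloTag fusions from the L30 promoter: HIF-1a, its DNA-binding mutant HIF-1a R30E, its dimerization mutant HIF-1aDM (R170A and V191D), HIF-2a, its DNA-binding mutant HIF-2a R27E and its dimerization mutant HIF-2aDM (R171A and V192D). Batch 2 held WT, HIF-1a and HIF-2a again, with 2 chimeras that exchange the intrinsically disordered region (IDR) after the structured DNA-binding and dimerization part: HIF-2a/1a (residues 1 to 365 of HIF-2α, then 364 to 826 of HIF-1α) and HIF-1a/2a (residues 1 to 363 of HIF-1α, then 366 to 870 of HIF-2α). Every transgenic line also kept the endogenous HIF-2α of 786-O. The genotype label of the HIF-2aDM libraries names HIF-1α, against their titles and descriptions, which were followed; in these libraries EPAS1, the gene of HIF-2α, averaged 725 CPM against 216 in WT, and HIF1A 2.87 CPM against 3.60. The study's methods call the 3 libraries of a group biological replicates, but no source used here says that they came from separate cultures, so p-values measure the spread between these libraries.

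Totals of counted reads ran from 42377599 to 101186554 per library in batch 1 and from 76366799 to 109642159 in batch 2, and 3 reads stood for 0.0271 to 0.0706 CPM (counts per 1000000 reads, scaled within a batch by edgeR's TMM factors for composition). HIF1A RNA averaged 3.60 CPM in batch 1 WT, 45.2 in HIF-1a, 37.4 in HIF-1a R30E and 33.5 in HIF-1aDM. HIF1A RNA of the mutants was thus near that of HIF-1a. In HIF-1a of batch 2 it averaged 147 CPM, but each batch was scaled on its own, so these levels were not compared between batches. By a test between batches of the change with HIF-1a, 1 of the 3 HIF subunit genes was called higher in batch 2. HIF1A RNA was also higher than WT in the HIF-2a lines, at 13.5 CPM in batch 1 and 10.4 CPM in batch 2. The renal marker PAX8 stood at 218 to 485 CPM as a group mean, and 7 markers of blood, vessel and liver cells summed to at most 0.233 CPM in any library. RBFOX3, a neuronal marker, was at 1.64 to 7.17 CPM as a group mean and was highest in HIF-2a in both batches. In bulk RNA, a smaller share of cells that express a gene and less of its RNA in every cell cannot be told apart.

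In WT cells, PFKFB3 was the most abundant of the 10 per kilobase of exon, at 32.4 ± 2.99 CPM per kilobase in batch 1 (SD, n = 3) and 20.9 ± 1.19 in batch 2. PFKFB4 and PDP1 came next in both batches, at 4.28 and 3.53 CPM per kilobase in batch 1 and at 2.31 and 6.81 in batch 2, where PDP2 at 2.19 ± 0.171 was within the spread of PFKFB4 (SD 0.238). Among the kinases of pyruvate dehydrogenase the order was not the same in both batches. PDK2 led in batch 1 at 1.46 ± 0.056 CPM per kilobase against 0.352 ± 0.028 for PDK1 and 0.332 ± 0.034 for PDK3, whereas PDK1 (1.13 ± 0.037), PDK3 (0.995 ± 0.073) and PDK2 (0.973 ± 0.128) lay close together in batch 2. RNA extraction, library kit and read length differed between batches and each batch was scaled on its own, so these levels were not tested against each other.

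With exogenous HIF-1α, PFKFB3, PFKFB4 and PDK1 rose by at least 2-fold in both batches. In batch 1, 4 of 10 members rose against WT and none fell by edgeR's quasi-likelihood test (Benjamini-Hochberg adjusted p of at most 0.01 and at least a 2-fold change), against 3.79% of all genes tested. In batch 2, 3 of 10 rose against 4.39% of genes, and by adjusted p alone 5 rose and 1 fell against 17.2%. The members' median change was 0.38 on the log2 scale in batch 1, where that of all genes was -0.03, and 0.54 in batch 2, where it was 0.03.

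PFKFB4 (chr3:48517684-48562015 of hg38, minus strand), another isozyme induced by hypoxia, changed most. Its 3 libraries read 25.7, 31.2 and 21.5 CPM in batch 1 WT and 254, 226 and 156 CPM in HIF-1a, and in batch 2 they read 15.2, 14.7 and 12.5 CPM in WT and 117, 107 and 93.3 CPM in HIF-1a. Every HIF-1a library was thus several times higher than every WT library. The log2 change was 3.02 ± 0.21 (SE) in batch 1 (8.13-fold, edgeR adjusted p = 1.92e-10) and 2.91 ± 0.09 in batch 2 (7.49-fold, edgeR adjusted p = 2.2e-28).

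PFKFB3 (chr10:6144934-6254644, plus strand) rose from a much higher base. It read 182, 194 and 218 CPM in batch 1 WT against 611, 567 and 585 CPM in HIF-1a, and 126, 121 and 135 CPM in batch 2 WT against 394, 390 and 366 CPM in HIF-1a. The groups did not overlap in either batch, and both changes were close to 3-fold: 1.57 ± 0.16 on the log2 scale in batch 1 (edgeR adjusted p = 1.03e-07) and 1.59 ± 0.05 in batch 2 (edgeR adjusted p = 9.67e-27).

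PDK1 (chr2:172555373-172608669, plus strand), the kinase isoform best known as a HIF-1 target, rose with HIF-1α. Its libraries read 5.32, 4.75 and 5.58 CPM in batch 1 WT and 20.5, 24.2 and 19.6 CPM in HIF-1a, and in batch 2 the values were 16.2, 17.3 and 16.6 CPM in WT and 60.6, 61.2 and 52.7 CPM in HIF-1a. Within each batch the groups were far apart. The log2 change was 2.04 ± 0.22 in batch 1 (edgeR adjusted p = 2.49e-07) and 1.80 ± 0.08 in batch 2 (edgeR adjusted p = 8.33e-23).

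PDK3 (chrX:24465244-24550466, plus strand), a kinase isoform of restricted tissue range, rose less. It read 5.75, 5.21 and 6.39 CPM in batch 1 WT and 10.3, 11.5 and 13.1 CPM in HIF-1a, and 16.2, 18.7 and 17.2 CPM in batch 2 WT against 27.3, 26.8 and 24.6 CPM in HIF-1a. No library of one group reached the other, but the size of the change sat at the 2-fold threshold. It was 1.01 ± 0.20 in batch 1 (edgeR adjusted p = 0.00101) and 0.59 ± 0.08 in batch 2 (edgeR adjusted p = 1.99e-08), and the batch 1 call was lost without HIF-1a replicate 3 (log2 change 0.91, adjusted p = 0.00784) and without WT replicate 2 (log2 change 0.94, adjusted p = 0.0119).

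The remaining members moved by less than 2-fold with HIF-1α. PDK2 rose by 0.74 ± 0.18 in batch 1 (edgeR adjusted p = 0.00863) and 0.54 ± 0.10 in batch 2 (adjusted p = 3.24e-05). PDP1, the phosphatase subunit that calcium stimulates, fell by 0.54 ± 0.14 in batch 1 (edgeR adjusted p = 0.00956) and by 0.68 ± 0.08 in batch 2 (adjusted p = 4.38e-09). In batch 1 neither of these calls was firm: that of PDK2 was lost when any of the 6 libraries was left out (adjusted p from 0.0105 to 0.0957), without the filter on low counts (0.0143) and with only these groups fitted (0.0145), and that of PDP1 without any of them but HIF-1a replicate 2 (0.0217 to 0.0807), with median-ratio scaling (0.0165), without the filter (0.126) and with only these groups fitted (0.0627). PFKFB1, PFKFB2, PDK4 and PDP2 did not pass in either batch.

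**Figure D1:**
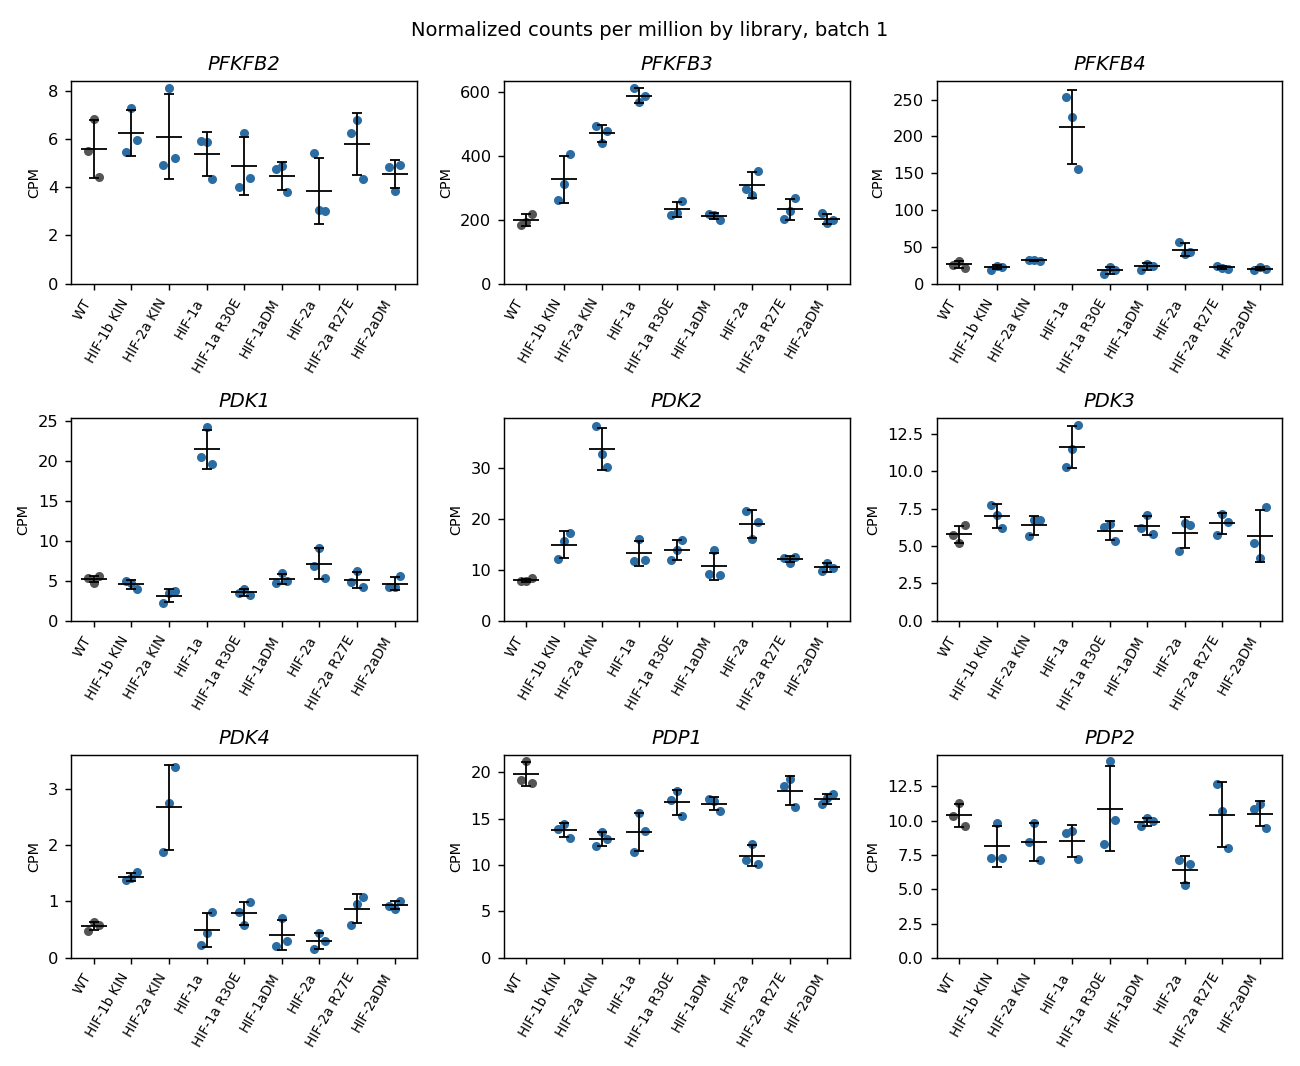
Each panel gives one gene of the PFKFB, PDK and PDP families with the CPM of every library of batch 1 (points; linear axis from 0), the group mean (line) and 1 SD (bars) for the 9 groups, PFKFB1 being left out. PFKFB4 and PDK1 stand out in HIF-1a alone, PDK2 is lowest in WT, and PDK4 is highest in HIF-2a KIN.

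Both families hold members whose promoters carry the core of the hypoxia response element, the short DNA word that HIF dimers bind. RefSeq promoter windows (GRCh38.p14, 250 bases before to 50 after each start) matched 8 members with 13 promoters, PFKFB2 and PDP1 having no entry used here. The letters ACGTG and GCGTG were searched on both strands, and a palindrome CACGTG was counted on each strand as an overlapping pair. They occurred in 7 of the 13 member promoters and in 48.4% of all 35114 promoters, a share close to that of the members. A match is a description of letters in a window and no measure of binding. The following stretches are shown because they belong to the 4 members called higher with HIF-1a and to PDK2, the member called higher with HIF-2a in both batches. Capitals mark the core as read on the printed strand, and exonic bases were left out except for PDK1, where 30 bases are given.
PFKFB3, start 2, chr10:6202682-6202865, plus strand: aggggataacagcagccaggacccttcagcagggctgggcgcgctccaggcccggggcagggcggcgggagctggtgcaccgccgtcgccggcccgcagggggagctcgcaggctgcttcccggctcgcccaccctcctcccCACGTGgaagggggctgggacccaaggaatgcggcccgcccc
PFKFB4, chr3:48556924-48556982, minus strand: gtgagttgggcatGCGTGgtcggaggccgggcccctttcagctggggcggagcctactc
PDK1, start 2, chr2:172556060-172556089, plus strand: ccctgctgcccgcCACGTccctCACGTacc
PDK3, chrX:24465036-24465243, plus strand: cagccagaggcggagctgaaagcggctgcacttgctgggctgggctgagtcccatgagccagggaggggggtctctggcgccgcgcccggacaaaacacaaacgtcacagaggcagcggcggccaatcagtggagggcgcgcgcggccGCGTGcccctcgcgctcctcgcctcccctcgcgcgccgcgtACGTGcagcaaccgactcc
PDK2, start 2, chr17:50095101-50095284, plus strand: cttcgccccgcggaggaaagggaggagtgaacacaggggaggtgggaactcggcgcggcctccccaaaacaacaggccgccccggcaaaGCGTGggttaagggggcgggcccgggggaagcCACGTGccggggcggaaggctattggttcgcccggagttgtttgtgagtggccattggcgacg
Counted from the RefSeq start, the cores lay at -108 and -107 in PFKFB3, at -166 in PFKFB4, at -17 and -8 in PDK1, at -102 and -61 in PDK3, and at -161, -129 and -128 in PDK2. Among the promoters not printed, that of PDP2, which passed as higher in no line against WT, held 3 cores at -218, -197 and -196, and PFKFB3 start 1 held one at -168. PDK1 has 1 other RefSeq start and PDK2 has 2 without these letters, and the single PDK4 window had none, although PDK4 changed in several lines.

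With exogenous HIF-2α, PDK2 rose by at least 2-fold in both batches and PDP1 was lower in both. In batch 1, 1 of 10 members rose against WT at 2-fold, against 5.72% of genes, and by adjusted p alone 3 rose and 1 fell, against 7.99% of genes. In batch 2, 2 rose and 2 fell at 2-fold, against 7.58% of genes, and by adjusted p alone 3 rose and 5 fell, against 27.4%.

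PDK2 (chr17:50094737-50112152, plus strand), an isoform expressed in most tissues, read 7.80, 7.78 and 8.32 CPM in batch 1 WT and 21.6, 16.0 and 19.5 CPM in HIF-2a, and 5.01, 4.83 and 6.12 CPM in batch 2 WT against 12.9, 12.3 and 13.0 CPM in HIF-2a. The rise was the same size in both batches, 1.26 ± 0.18 in batch 1 (edgeR adjusted p = 1.47e-05) and 1.26 ± 0.10 in batch 2 (edgeR adjusted p = 1.65e-14). PDK2 has 2113 exonic bases in common with SAMD14 on the other strand, and counting did not use strand. The study's methods name HTSeq's union mode, which leaves out reads that overlap 2 genes. Reads of that overlap thus counted for neither gene. The level of PDK2 per kilobase still divides by all its exons, this overlap included.

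PFKFB4 rose with HIF-2α too, to 56.4, 39.8 and 42.4 CPM in batch 1 and 32.9, 32.0 and 28.8 CPM in batch 2. All 6 libraries lay above those of WT in their batch and below those of HIF-1a. The change was 0.82 ± 0.20 in batch 1 (edgeR adjusted p = 0.00548) and 1.15 ± 0.09 in batch 2 (edgeR adjusted p = 4.65e-15). PFKFB3 rose by 0.64 ± 0.16 in batch 1 (adjusted p = 0.00595) and 0.67 ± 0.05 in batch 2 (adjusted p = 1.97e-14). The batch 1 call was lost for PFKFB4 without HIF-2a replicate 1, WT replicate 1 or WT replicate 3 (adjusted p from 0.023 to 0.0521), and for PFKFB3 without HIF-2a replicate 1 or 3, WT replicate 1 or 2 (0.0144 to 0.0607) or the filter on low counts (0.0255), and when only these groups were fitted (0.0176). Genes near PFKFB3 were higher in batch 2 as well: the 49 tested genes within 2 Mb had a median log2 change of 0.47 with HIF-1a, 0.49 with HIF-2a, 0.58 with HIF-1a/2a and 0.22 with HIF-2a/1a, against 0.05 or less over chromosome 10. In batch 1 the 42 tested genes there had a median of -0.08 with HIF-1a and -0.16 with HIF-2a. The part of this in the rise of PFKFB3 was not tested.

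PDK1, in contrast, read 6.89, 9.15 and 5.36 CPM with HIF-2a in batch 1, overlapping WT, and 16.3, 19.2 and 14.6 CPM in batch 2, on both sides of WT. Neither comparison passed (edgeR adjusted p = 0.183 and 0.994), and in batch 2 the fitted level was 0.998 times that of WT.

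The phosphatase subunits were lower with HIF-2α. PDP1 (chr8:93857807-93926068, plus strand) read 19.2, 21.2 and 18.9 CPM in batch 1 WT and 10.6, 12.3 and 10.1 CPM in HIF-2a, and 39.3, 37.6 and 37.5 CPM in batch 2 WT against 16.1, 18.1 and 22.7 CPM in HIF-2a. The groups did not overlap. PDP1 fell by 0.85 ± 0.14 in batch 1 (edgeR adjusted p = 6.01e-05) and by 1.01 ± 0.08 in batch 2 (edgeR adjusted p = 3.77e-14), where it passed 2-fold by a narrow margin and did not without HIF-2a replicate 1 (log2 change -0.92), HIF-2a replicate 2 (-0.99) or WT replicate 1 (-0.99). PDP2 fell by 0.84 ± 0.09 in batch 2 (adjusted p = 3.98e-11), from 18.8, 18.8 and 16.4 CPM to 9.55, 10.5 and 10.2 CPM. In batch 1 PDP2 read 10.3, 11.3 and 9.63 CPM in WT and 7.13, 5.30 and 6.82 CPM in HIF-2a, which did not pass (adjusted p = 0.0202).

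PDK4 (chr7:95583499-95596516, minus strand), the isoform that fasting induces in muscle, was scarce. It read 0.936, 1.51 and 1.18 CPM in batch 2 WT and 0.476, 0.580 and 0.367 CPM in HIF-2a, from 28 to 167 reads. The groups did not overlap and PDK4 fell by 1.35 ± 0.31 (edgeR adjusted p = 0.000412). PFKFB2, known as the heart isozyme, fell by 0.89 ± 0.10 in batch 2 (adjusted p = 3.09e-10), and PDK3 fell by 0.51 ± 0.08 (adjusted p = 4.14e-07), whereas HIF-1α had raised PDK3. The 64 tested genes within 2 Mb of PFKFB2 had a median log2 change of -0.24 with HIF-2a in batch 2, against 0.02 over chromosome 1. In batch 1 the 54 tested genes there had -0.66, against -0.17 over the chromosome. The part of this in the fall of PFKFB2 was not tested.

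**Figure D2:**
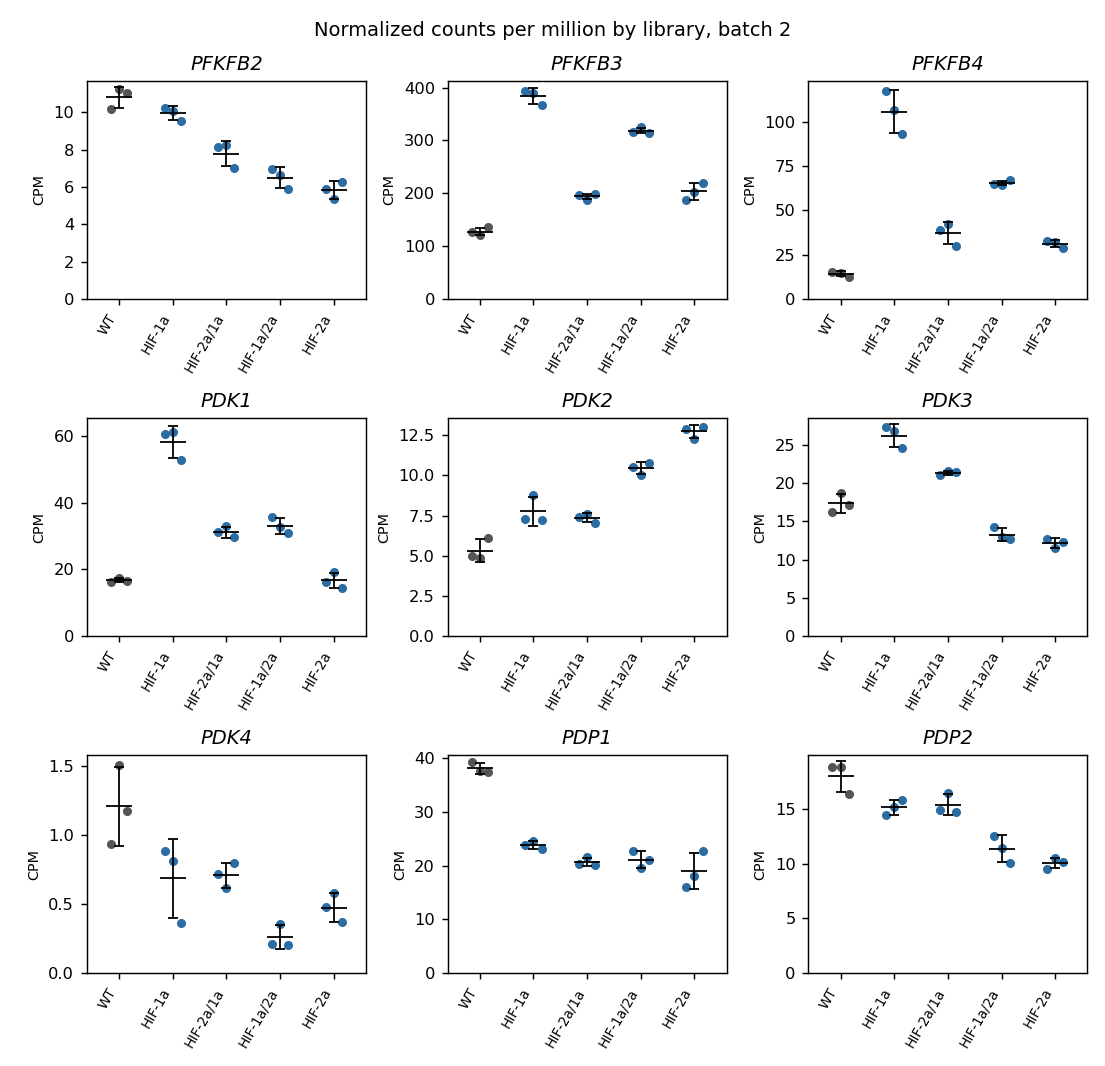
Each panel gives one gene with the CPM of every library of batch 2 (points; linear axis from 0), the group mean (line) and 1 SD (bars) for WT, HIF-1a, HIF-2a/1a, HIF-1a/2a and HIF-2a. PDK1 is at the WT level in HIF-2a and between WT and HIF-1a in both chimeras, while PDP1 is below WT in all 4 transgenic lines.

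Set directly against each other, the HIF-1a and HIF-2a lines differed in both families. HIF-2a was lower than HIF-1a at 2-fold for 2 of 10 members in batch 1, against 2.4% of genes, and for 3 of 10 in batch 2, against 3.78%; by adjusted p alone 7 were lower and 1 was higher in batch 2, against 17.6%. For PFKFB4 the log2 difference, HIF-2a minus HIF-1a, was -2.20 ± 0.21 in batch 1 (edgeR adjusted p = 4.96e-08) and -1.76 ± 0.09 in batch 2 (adjusted p = 2.18e-21). PDK1 differed by -1.59 ± 0.22 (adjusted p = 1.61e-05) and -1.80 ± 0.08 (adjusted p = 8.25e-23). PDK3 differed by -0.98 ± 0.20 (adjusted p = 0.00192) and -1.11 ± 0.08 (adjusted p = 6.49e-16), and of the kinase isoforms that passed only PDK2 was higher in HIF-2a, by 0.72 ± 0.10 in batch 2 (adjusted p = 9.21e-08). In batch 1 the PDK2 libraries of HIF-1a (11.8, 16.1 and 12.0 CPM) and HIF-2a overlapped and the difference did not pass (adjusted p = 0.106). PFKFB3 differed by -0.93 ± 0.16 in batch 1 (adjusted p = 0.000259) and -0.91 ± 0.05 in batch 2 (adjusted p = 1.98e-18). Without HIF-2a replicate 3 of batch 1, 4 members were called in that batch, PDK3 (-1.06) and PFKFB3 (-1.06) joining PFKFB4 and PDK1. PDK3 no longer passed on the adjusted p in batch 1 without HIF-1a replicate 3 (0.0146) or HIF-2a replicate 1 (0.0248), or with only these groups fitted (0.0101).

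**Figure D3:**
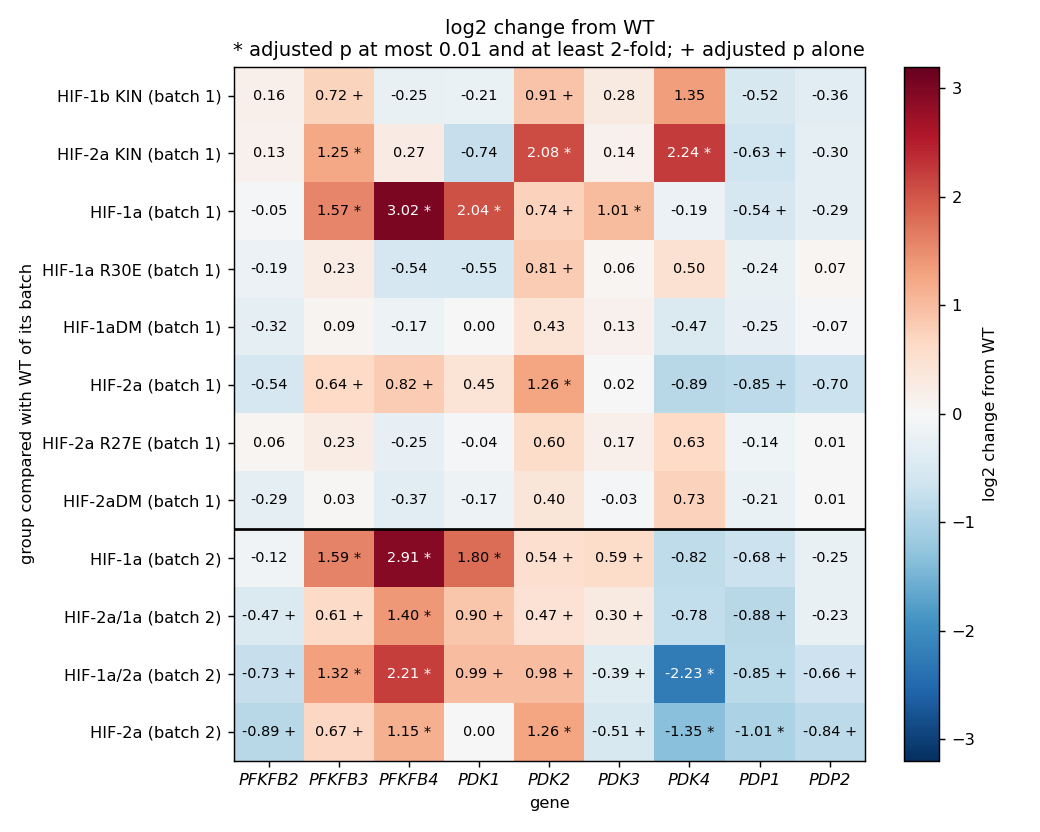
Fitted log2 change from WT of the same batch for each line (down) and gene (across); colour and printed number give the change, and marks show which changes passed the adjusted p of 0.01 with and without 2-fold. The largest values are those of PFKFB4 with HIF-1a, 3.02 in batch 1 and 2.91 in batch 2.

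The mutants address whether the changes depend on DNA binding and dimerization. Against WT, none of the 10 members was called for any of the 4 mutants by edgeR or by DESeq2. Of all genes, 2.61% were called for HIF-1a R30E, 0.457% for HIF-1aDM, 0.496% for HIF-2a R27E and 0.474% for HIF-2aDM. An unadjusted p under 0.05 was found for 3 of 10 members with HIF-1a R30E, where 16.5% of all genes had one, and for 1 of 10 with HIF-1aDM (8.71% of genes), HIF-2a R27E (7.5%) and HIF-2aDM (8.28%). PFKFB4 read 13.0, 22.7 and 18.1 CPM in HIF-1a R30E and 18.7, 27.1 and 23.8 CPM in HIF-1aDM, at or below WT. PDK1 read 3.52, 3.99 and 3.15 CPM in HIF-1a R30E, below WT in every library without passing (adjusted p = 0.16), and 4.77, 5.98 and 4.95 CPM in HIF-1aDM.

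The intact HIF-1α exceeded both its mutants on PFKFB4, PDK1 and PFKFB3 at 2-fold. Against HIF-1a R30E, 3 of 10 members were higher at 2-fold (1.75% of genes were called), and against HIF-1aDM also 3 of 10 (1.37% of genes). PFKFB4 differed by 3.56 ± 0.22 and 3.19 ± 0.22 (edgeR adjusted p = 2.79e-11 and 1.94e-10), PDK1 by 2.59 ± 0.23 and 2.03 ± 0.22 (adjusted p = 1.12e-08 and 6e-07), and PFKFB3 by 1.34 ± 0.16 and 1.48 ± 0.16 (adjusted p = 1.89e-06 and 6e-07). PDK3 passed on the adjusted p but not on size, at 0.95 ± 0.20 and 0.87 ± 0.20 (adjusted p = 0.00364 and 0.00978). These PDK3 differences rested on single libraries, since leaving out HIF-1a R30E replicate 1 or 3 or HIF-1a replicate 2 or 3 ended the first (adjusted p from 0.0145 to 0.0354) and leaving out any of the 6 libraries ended the second (0.0147 to 0.0599). Fitting only the groups compared ended both (0.0231 and 0.0174), and dropping the filter ended the second (0.0216). PDK2 and PDP1, which had passed in HIF-1a against WT, passed against neither mutant. PDK2 averaged 13.3 CPM in HIF-1a, 14.0 in HIF-1a R30E and 10.7 in HIF-1aDM. PDP1 averaged 13.6, 16.7 and 16.6 CPM in the same groups.

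For HIF-2α the one member that exceeded both mutants at 2-fold was PFKFB4, by 1.07 ± 0.20 over HIF-2a R27E (edgeR adjusted p = 0.0006; 1 of 10 members, 3.63% of genes) and by 1.19 ± 0.20 over HIF-2aDM (adjusted p = 0.000153; 1 of 10 members, 3.96% of genes). The first of these fell to 0.91 (adjusted p = 0.00851), under 2-fold, without HIF-2a replicate 1, which had the highest PFKFB4 level of the group. PFKFB3, which had passed in HIF-2a against WT, passed over neither mutant. It averaged 308 CPM in HIF-2a, 232 in HIF-2a R27E and 203 in HIF-2aDM. The lowest HIF-2a library, at 277 CPM, lay above the highest of HIF-2a R27E (267) and of HIF-2aDM (221). PDP1 was lower in HIF-2a than in either mutant, by 0.71 ± 0.14 against HIF-2a R27E (adjusted p = 0.000763) and by 0.64 ± 0.14 against HIF-2aDM (adjusted p = 0.00203). The first PDP1 difference stood at an adjusted p of 0.01 without HIF-2a R27E replicate 2, just past the threshold, 0.0256 without the filter on low counts and 0.064 when only these groups were fitted, and the second was lost without HIF-2a replicate 1 or 3 or HIF-2aDM replicate 3 (0.0113 to 0.0162), without the filter (0.0514) or with only these groups fitted (0.0156). The mutants read 16.2 to 19.2 CPM for PDP1, nearer to WT.

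PDK4 was also lower with intact HIF-2α, at 0.165, 0.440 and 0.301 CPM against 0.581, 0.946 and 1.08 CPM in HIF-2a R27E and 0.913, 0.869 and 1.01 CPM in HIF-2aDM. No library overlapped, but only 7 to 20 reads lay behind the HIF-2a values. The difference from HIF-2a R27E was -1.52 ± 0.45 (edgeR adjusted p = 0.0344) and passed with the replicate number as a block, which pairs these libraries (-1.53, adjusted p = 0.00548; 2 members called), its adjusted p running from 0.00548 to 0.135 over the 5 alternative fits with all replicates. The difference from HIF-2aDM was -1.62 ± 0.45 (adjusted p = 0.021), and it passed by DESeq2 (adjusted p = 0.00514) and with the block (adjusted p = 0.0021), within a range of 0.0021 to 0.0262 over the same 5 alternatives.

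PDK2 was above WT in every line: in batch 1 all 24 libraries that were not WT, mutants included, lay above the 3 WT libraries, between 9.07 and 38.4 CPM. For PDP1, 23 of these 24 lay below the 3 WT libraries. HIF-1a R30E, at 12.0, 14.0 and 15.9 CPM, passed on the adjusted p (log2 change 0.81 ± 0.18, edgeR adjusted p = 0.00493), but not without HIF-1a R30E replicate 2 or 3 or any 1 WT library (0.0151 to 0.0433), nor with only these groups fitted (0.0169). HIF-1aDM read 9.27, 13.8 and 9.07 CPM, HIF-2a R27E 12.3, 11.4 and 12.5 CPM and HIF-2aDM 9.73, 11.4 and 10.4 CPM, and these did not pass. The part of the HIF-2a rise above the mutants was 0.86 ± 0.18 over HIF-2aDM (adjusted p = 0.00185, lost without HIF-2a replicate 1 or HIF-2aDM replicate 1 or 3) and 0.66 ± 0.18 over HIF-2a R27E, which did not pass (adjusted p = 0.0193) except with the replicate block (adjusted p = 0.00595), by DESeq2 (adjusted p = 0.00168) or with median-ratio scaling (adjusted p = 0.00985), and reached 0.083 when only these 2 groups were fitted. In batch 2, too, all 12 libraries that were not WT lay above WT, between 7.05 and 13.0 CPM.

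The endogenous knock-ins tag HIF subunits without adding a transgene, and in HIF-2a KIN the members that rose were PDK2, PDK4 and PFKFB3. In HIF-2a KIN, 3 of 10 members rose at 2-fold against 4.14% of genes. In HIF-1b KIN none was called, against 1.38% of genes, with 4 members at an unadjusted p under 0.05 (13% of genes had one) and 0 called by DESeq2, and PDK2 was called there without HIF-1b KIN replicate 1 (log2 change 1.05).

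PDK2 read 38.4, 32.8 and 30.2 CPM in HIF-2a KIN and 12.1, 15.7 and 17.2 CPM in HIF-1b KIN, a log2 change of 2.08 ± 0.19 (edgeR adjusted p = 1.12e-08) and 0.91 ± 0.18 (adjusted p = 0.00279). The second was lost when any library but HIF-1b KIN replicate 1 was left out (adjusted p from 0.0123 to 0.0233) or only these groups were fitted (0.0162). Other genes near PDK2 were higher in these clones as well: the 86 tested genes within 2 Mb on chromosome 17 had a median log2 change of 1.15 in HIF-2a KIN and 0.57 in HIF-1b KIN, with 0.42 and 0.20 over the whole chromosome. The part of this in the rise of PDK2 was not tested. PDK2 was above WT in every other line as well, and there the median within 2 Mb was -0.17 in HIF-2a of batch 1 but above 0 in the rest, from 0.08 in HIF-2aDM to 0.23 in HIF-1a in batch 1, and from 0.09 in HIF-2a to 0.29 in HIF-1a in batch 2 (99 genes).

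PDK4 read 0.480, 0.634 and 0.576 CPM in batch 1 WT, 1.87, 2.74 and 3.38 CPM in HIF-2a KIN and 1.38, 1.41 and 1.51 CPM in HIF-1b KIN. Both clones lay above WT in every library, from 39 to 269 reads. The rise in HIF-2a KIN was 2.24 ± 0.43 (edgeR adjusted p = 0.000737), and that in HIF-1b KIN, 1.35 ± 0.43, did not pass (adjusted p = 0.0932). With overexpressed HIF-2α in the same batch PDK4 read 0.165 to 0.440 CPM, under every WT library, without passing against WT (adjusted p = 0.218). EPAS1, the gene of HIF-2α, was itself lower in HIF-2a KIN, at 92.0 CPM against 216 in WT, and the part of that in the result was not tested.

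PFKFB3 read 492, 441 and 478 CPM in HIF-2a KIN and 261, 312 and 405 CPM in HIF-1b KIN. Every library exceeded WT, by 1.25 ± 0.16 in HIF-2a KIN (edgeR adjusted p = 3.18e-06) and 0.72 ± 0.16 in HIF-1b KIN (adjusted p = 0.00689), the latter lost when any library but HIF-1b KIN replicate 1 was left out (0.0142 to 0.0774), the filter on low counts was dropped (0.0278) or only these groups were fitted (0.0906). PFKFB4 stayed at 30.9 to 32.3 CPM in HIF-2a KIN and 18.9 to 24.4 CPM in HIF-1b KIN, overlapping WT in both. PDK1 was at 2.22, 3.40 and 3.72 CPM in HIF-2a KIN, below every WT library, and did not pass (adjusted p = 0.0258), and PDP1 fell by 0.63 ± 0.14 (adjusted p = 0.00246), which was lost without HIF-2a KIN replicate 1 or 3 or WT replicate 2 (0.0103 to 0.0197), without the filter (0.04) or with only these groups fitted (0.0536).

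The chimeras address which part of the protein a response follows, the structured N-terminal part or the IDR. Against WT, HIF-2a/1a raised 1 of 10 members at 2-fold (3.49% of genes), and by adjusted p alone 5 rose and 2 fell (16.7% of genes). HIF-1a/2a raised 2 and lowered 1 at 2-fold (7.78% of genes), and by adjusted p alone 4 rose and 5 fell (27.8% of genes). PDK1 and PDK2 sat just under the threshold in HIF-1a/2a, with means 1.98 and 1.96 times that of WT. Each was called in 2 of the 6 fits that left out 1 library. The chimeras were measured in batch 2 alone. Transgene RNA was not shown to be equal among the transgenic lines, and its part in the domain effects given below was not tested.

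PFKFB4 followed the structured part more than the IDR. It read 65.0, 64.2 and 66.9 CPM in HIF-1a/2a, which has the structured part of HIF-1α, and 38.9, 42.3 and 30.1 CPM in HIF-2a/1a. The 4 lines stood in the order HIF-1a, HIF-1a/2a, HIF-2a/1a and HIF-2a, and only the last 2 overlapped. Averaged over both IDRs, having the structured part of HIF-2α in place of that of HIF-1α changed PFKFB4 by -1.29 ± 0.06 (edgeR adjusted p = 1.64e-21), and the IDR of HIF-2α in place of that of HIF-1α changed it by -0.47 ± 0.06 (adjusted p = 6.82e-09).

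PFKFB3 followed the structured part as well. It read 316, 324 and 314 CPM in HIF-1a/2a and 197, 188 and 198 CPM in HIF-2a/1a, the latter overlapping HIF-2a (188, 203 and 220 CPM). The structured-domain effect was -0.81 ± 0.04 (edgeR adjusted p = 2.15e-21), whereas the IDR effect of -0.10 ± 0.04 did not pass (adjusted p = 0.0384).

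PDK1 lay between. It read 31.1, 32.9 and 29.6 CPM in HIF-2a/1a and 35.7, 32.6 and 31.0 CPM in HIF-1a/2a, so the chimeras overlapped one another and fell between HIF-2a and HIF-1a. Both parts had an effect, -0.94 ± 0.06 for the structured domain (edgeR adjusted p = 5.75e-18) and -0.86 ± 0.06 for the IDR (adjusted p = 1.91e-17).

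PDK3 and PDK2 followed the IDR more than the structured part. PDK3 read 21.1, 21.6 and 21.5 CPM in HIF-2a/1a, above WT like HIF-1a, and 14.2, 12.9 and 12.7 CPM in HIF-1a/2a, below WT like HIF-2a. No library of one kind of IDR overlapped the other. The IDR effect was -0.90 ± 0.05 (edgeR adjusted p = 3.02e-18) and the structured-domain effect -0.21 ± 0.05 (adjusted p = 0.00373), which no longer passed without HIF-1a replicate 1 or 2, HIF-1a/2a replicate 1, HIF-2a replicate 2 or HIF-2a/1a replicate 1 (0.0105 to 0.0197). PDK2 read 10.6, 10.0 and 10.7 CPM in HIF-1a/2a and 7.44, 7.59 and 7.05 CPM in HIF-2a/1a, with an IDR effect of 0.61 ± 0.07 (adjusted p = 6.7e-10) and no structured-domain effect that passed (adjusted p = 0.353).

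PDK4, PFKFB2 and PDP2 were lower with the IDR of HIF-2α. PDK4 read 0.213, 0.359 and 0.206 CPM in HIF-1a/2a, from 17 to 27 reads, and 0.713, 0.616 and 0.793 CPM in HIF-2a/1a. Every HIF-1a/2a library lay under every library of the other groups, by a narrow margin against HIF-1a, whose lowest library was at 0.360 CPM. The IDR effect on PDK4 was -0.99 ± 0.23 (edgeR adjusted p = 0.000554), that on PFKFB2 -0.51 ± 0.07 (adjusted p = 5.3e-08) and that on PDP2 -0.51 ± 0.06 (adjusted p = 2.2e-09). PDP1 read 16.1 to 24.5 CPM in the 4 transgenic lines and 37.5 to 39.3 CPM in WT, and neither part had an effect on it that passed (adjusted p = 0.0446 for the IDR and 0.0242 for the structured domain).

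**Figure D4:**
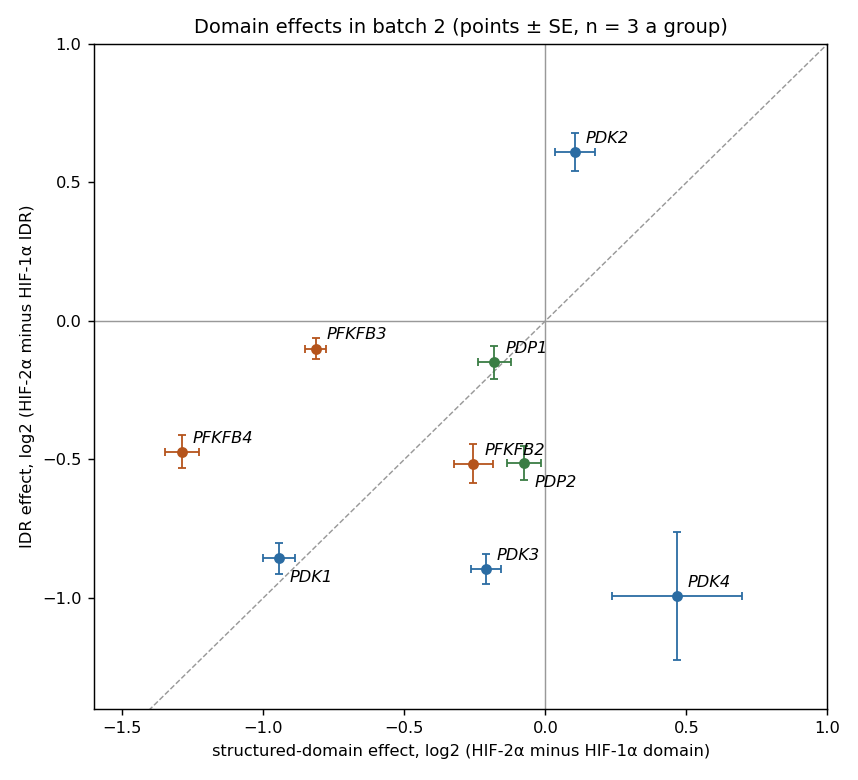
Structured-domain effect (horizontal axis) against IDR effect (vertical axis) of each gene in batch 2, in log2 units with bars of 1 SE. PFKFB3 and PFKFB4 lie far to the left, PDK3 and PDK4 far down, PDK1 on the diagonal, and PDK2 above 0.

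Counted over the members, the IDR effect passed on the adjusted p for 7 of 10, 1 higher and 6 lower with the IDR of HIF-2α, against 24.7% of genes. None reached 2-fold by edgeR or DESeq2 (4.41% of genes did), with 9 members at an unadjusted p under 0.05 (39% of genes had one), and PDK4 at -0.99 sat at the threshold. It was called without the filter on low counts, with the replicate block, and without HIF-1a replicate 3 (-1.15), HIF-1a/2a replicate 2 (-1.14), HIF-2a replicate 1 (just past 2-fold) or replicate 2 (-1.08), or HIF-2a/1a replicate 2 (-1.04). The structured-domain effect passed on the adjusted p for 5 of 10, all lower with HIF-2α's part, against 11.4% of genes, and 1 reached 2-fold, against 1.04%. Of these 5, PFKFB2 (-0.26 ± 0.07, edgeR adjusted p = 0.00685) passed in only 5 of the 12 fits that each left out 1 library and PDK3 in 7, and both were lost, leaving 3, without HIF-1a replicate 1, HIF-1a replicate 2, HIF-1a/2a replicate 1 or HIF-2a replicate 2.

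The direct comparison of the chimeras equals the IDR effect minus the structured-domain effect, and was added after the values were seen. Members differed in both directions. PFKFB4 (0.82 ± 0.08, edgeR adjusted p = 5.74e-11), PFKFB3 (0.71 ± 0.05, adjusted p = 4.96e-15) and PDK2 (0.51 ± 0.10, adjusted p = 5.78e-05) were higher in HIF-1a/2a. PDK4 (-1.46 ± 0.34, adjusted p = 0.000599), PDK3 (-0.68 ± 0.08, adjusted p = 6.8e-10) and PDP2 (-0.44 ± 0.09, adjusted p = 6.81e-05) were higher in HIF-2a/1a. PDK1, PDP1 and PFKFB1 did not pass and overlapped, and PFKFB2 did not pass. In all, 1 of 10 members was called at 2-fold, against 5.01% of genes, and 6 by adjusted p alone, against 21.1%. RNA from EPAS1, which the HIF-2α part of a transgene adds to, was 574 CPM in HIF-1a/2a and 232 CPM in HIF-2a/1a. The chimeras hold different stretches of EPAS1, so these values do not measure transgene RNA alike. Of the 3 HIF subunit genes, 1 was called higher in HIF-1a/2a, with the 2-fold change included, and 0 were lower, also by adjusted p alone. Transgene RNA was thus not shown to be matched or unmatched, and its part in these differences was not tested.

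The effect of the IDR differed between the structured parts for 2 genes, PFKFB3 and PFKFB4, against 5.37% of genes by adjusted p alone. The interaction, the IDR exchange within HIF-2α's structured part minus that within HIF-1α's, was 0.44 ± 0.12 for PFKFB4 (edgeR adjusted p = 0.00942) and 0.34 ± 0.08 for PFKFB3 (adjusted p = 0.00174). Within the structured part of HIF-1α every library with the IDR of HIF-2α was lower for both genes (PFKFB4 at 65.0, 64.2 and 66.9 CPM against 117, 107 and 93.3 CPM), whereas within that of HIF-2α the libraries overlapped. The PFKFB4 interaction no longer passed without HIF-1a replicate 1 or 2, HIF-1a/2a replicate 1 or 2, HIF-2a replicate 1 or 2 or HIF-2a/1a replicate 3, each left out alone (adjusted p from 0.0122 to 0.062), and that of PFKFB3 no longer passed without HIF-2a replicate 3 (0.28, adjusted p = 0.0127). No member reached 2-fold for the interaction by edgeR or DESeq2 (1.18% of genes did), and 3 had an unadjusted p under 0.05, as had 20.8% of genes.

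The HIF-1α and HIF-2α responses were measured in both batches, which allowed a test of the difference. No member differed at 2-fold between batches by edgeR or DESeq2, for HIF-1α (1 unadjusted p under 0.05 and 5.44% of genes with one, 0.00374% of genes called) or for HIF-2α (2 unadjusted p under 0.05 and 10.7% of genes with one, 0% of genes called). PDK3 came nearest, with a batch difference of -0.57 ± 0.19 in its HIF-1α response (edgeR adjusted p = 0.896) and -0.68 ± 0.19 in its HIF-2α response (adjusted p = 0.18), the latter passing with the replicate number as a block (-0.67, adjusted p = 0.00575). PDK1 differed by -0.58 ± 0.21 in its HIF-2α response (adjusted p = 0.313). A p that misses the threshold does not show that the responses were equal.

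In the PDK family PDK2 led in every group of batch 1, while the leading isoform changed with the line in batch 2. Of the summed PDK level per kilobase of exon in batch 1, PDK2 took 64.4% ± 0.794 (SD, n = 3) in WT, 84.0% ± 4.45 in HIF-2a KIN and 79.5% ± 5.77 in HIF-2a, but 52.0% ± 2.97 in HIF-1a, where PDK1 went from 15.5% ± 0.759 to 31.2% ± 1.71. In batch 2 WT the 3 major isoforms were nearly even, with PDK1 at 33.6% ± 1.37, PDK3 at 29.6% ± 1.39 and PDK2 at 29.0% ± 3.31. There PDK1 took 56.1% ± 0.763 in HIF-1a and PDK2 took 54.7% ± 2.74 in HIF-2a, and in the chimeras PDK1 led with 43.5% ± 0.996 in HIF-2a/1a and 44.9% ± 1.56 in HIF-1a/2a. These shares, and any order of levels between isoforms, depend on the length given to each gene. With the longest transcript in place of all exons, PDK1 still led in batch 2 HIF-1a at 47.6%, but PDK2 led in batch 2 WT with 35.4% against 26.6% for PDK1, PDK2 led in HIF-1a/2a with 47.3% against 35.7%, and in HIF-2a/1a PDK1 and PDK2 stood at 35.3% and 34.8%.

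PFKFB3 kept the largest share of the PFKFB level in every group, from 73.4% ± 4.59 in HIF-1a to 93.0% ± 0.55 in HIF-2a KIN, both in batch 1. PFKFB4 took a larger share with HIF-1α, from 11.5% ± 2.42 to 26.2% ± 4.53 in batch 1 and from 9.54% ± 1.29 to 21.3% ± 1.3 in batch 2. PFKFB1 never exceeded 0.196% as a group mean.

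**Figure D5:**
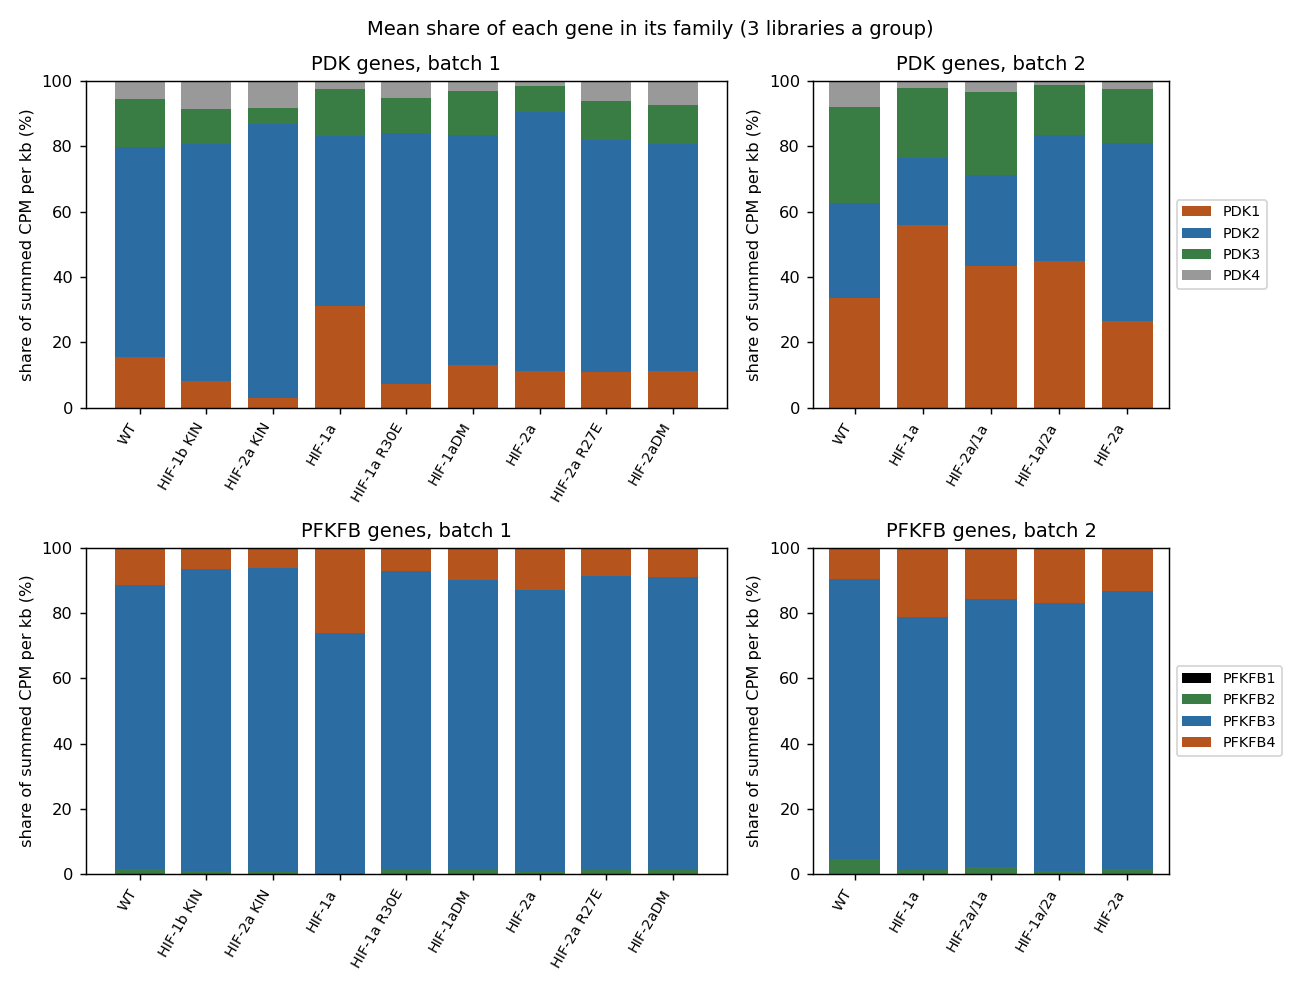
Stacked bars of the share (percent) of each isoform in the summed level per kilobase of exon, for the PFKFB family and the PDK family in all 14 groups, as means of 3 libraries. PFKFB3 fills most of every PFKFB bar, while by exon length the leading PDK isoform is PDK2 in batch 1 and changes with the line in batch 2, an order that depends on the length used.

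The ratio of summed kinase to summed phosphatase RNA per kilobase was higher in all lines than in WT. It was 0.474 ± 0.052 in batch 1 WT (SD, n = 3; 0.422 to 0.526), 1.34 ± 0.02 in HIF-1a, 1.59 ± 0.155 in HIF-2a, 2.22 ± 0.243 in HIF-2a KIN and 1.10 ± 0.166 in HIF-1b KIN. The 4 mutants had means of 0.637 to 0.776, with the lowest library at 0.574, above WT. In batch 2 the ratio was 0.374 ± 0.032 in WT, 1.15 ± 0.08 in HIF-1a, 0.868 ± 0.017 in HIF-2a/1a, 0.936 ± 0.141 in HIF-2a and 0.965 ± 0.033 in HIF-1a/2a. The sums weigh RNA of isoforms that differ in activity, and are given as a description without a test. They depend on the length given to each gene, and exon length alone was used. In HIF-2a KIN PDK2 took 84.0% of the PDK sum, and genes near PDK2 were higher there as well. The part of this in the ratio was not tested.

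Genes of the same steps were followed as lists. Of the 5 tested phosphofructokinase and fructose bisphosphatase genes, the liver-type PFKL was called higher in HIF-1a and in HIF-2a of both batches, by 1.14 ± 0.23 and 1.23 ± 0.23 in batch 1 and 1.06 ± 0.05 and 1.09 ± 0.05 in batch 2, and no other was called against WT in those lines. The list's median change with HIF-2a was 0.88 in batch 1 and 0.80 in batch 2, where that of the 10 members was -0.26 in both. Of the 6 genes of the pyruvate dehydrogenase complex none was called for any transgene against WT, and those that passed on the adjusted p were all lower. In batch 1 this was 1 gene with HIF-2a, where 7.99% of all genes passed in either direction. In batch 2 it was 3 with HIF-1a (17.2% of all genes), 4 with HIF-2a (27.4%), 3 with HIF-2a/1a (16.7%) and 5 with HIF-1a/2a (27.8%). DLD, the dihydrolipoyl dehydrogenase shared with other complexes, fell by 0.86 ± 0.20 with HIF-2a in batch 1 and by 0.77 ± 0.06 in batch 2. Of 5 genes for other fates of pyruvate, LDHA, which makes lactate, rose by 1.20 ± 0.24 with HIF-1a in batch 1 and 1.16 ± 0.04 in batch 2, and PC, which makes oxaloacetate, had an IDR effect of 1.02 ± 0.05 (edgeR adjusted p = 2.71e-22). The branched-chain kinase BCKDK, a relative of the PDK enzymes, rose by 0.47 ± 0.06 with HIF-1a in batch 2, and neither it nor its phosphatase PPM1K was called at 2-fold in any line against WT.

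Over the 12 log2 changes from WT and among 12462 genes, those most like PFKFB4 by Pearson's r were CA9 (0.965), ARHGEF37 (0.963) and PGM1 (0.959). Those most like PDK1 were PIAS2 (0.959), UPRT (0.951) and INSIG2 (0.943), and those most like PFKFB3 were ERO1A (0.912), ADAMTS12 (0.907) and LINC02532 (0.895). The changes of a batch share its WT libraries, so these are descriptions of likeness only. CA9, a carbonic anhydrase known as a HIF-1 target, was at 0 CPM in batch 2 WT and at 22.9 CPM in HIF-1a.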

How the data were processed

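RNA of 786-O lines was sequenced as polyA libraries in 2 batches, 27 in batch 1 (RNeasy extraction, TruSeq-type library) and 15 in batch 2 (TRIzol extraction, DNase, NEBNext library). The study's methods give 3 biological replicates per group. The authors aligned reads to hg38 with STAR, kept unique mappers and counted them per GENCODE gene with HTSeq without strand, and the deposited values are raw read counts. The processing notes name STAR 2.7, SAMtools 1.9 and HTSeq 0.11.1. Groups came from the labels. Totals had a median of 66795104 in batch 1 and 90438640 in batch 2. The 42 pairs of libraries within groups all differed by more than counting noise (chi-square per degree of freedom from 4.51 to 474).

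Counts were fitted with edgeR 4.0.16 (R 4.3.3) by the quasi-likelihood test after TMM scaling, with 1 fit per batch over all its groups and a joint fit for differences between batches. Genes entered when their normalized count averaged 0.5 or more, 23410 in batch 1, 28724 in batch 2 and 26763 in the joint fit. A call needed a Benjamini-Hochberg adjusted p of at most 0.01 over all genes tested and a 2-fold change, the thresholds of the study, and "passed" or "by adjusted p alone" means the first condition only. Levels per kilobase used the union of exons. In batch 1, libraries with the same number deviated together from their group means (mean r of 0.244 over 108 pairs). The mean r of -0.121 over 216 pairs with different numbers follows largely from taking out the group means and is no separate evidence. In 7 comparisons every pair with the same number exceeded 0.1, so numbers pair those libraries. In batch 2 they did not (mean r of 0.00499).

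The alternatives were DESeq2 1.42.0, median-ratio scaling, no filter, a fit to only the groups compared, the replicate number as a block, each library left out in turn, and longest-transcript length. The direct comparison of the chimeras was chosen after seeing the data. The members and the lists of other genes were chosen with earlier results of these data known. Genes named are the members, the genes of the HIF subunits, lists of pathway neighbours (with counts for each list and values for those called, DLD and BCKDK being named after their values were seen), markers of cell types, and the 3 genes with the highest Pearson correlation to PFKFB3, PFKFB4 and PDK1 among those averaging 50 or more normalized counts in each batch.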

Additional observations from a re-analysis of the deposited data

Results flagged for a closer look

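For PFKFB4 and PFKFB3 the IDR effect differed between the structured parts in batch 2, by a test of the difference itself, but for PFKFB4 the call depended on single libraries. The interaction, which is the IDR exchange within the structured part of HIF-2α minus that within the structured part of HIF-1α, was 0.44 ± 0.12 on the log2 scale for PFKFB4 (edgeR adjusted p = 0.00942, and 1.43e-05 to 0.0091 over the alternatives with all libraries). For PFKFB3 it was 0.34 ± 0.08 (edgeR adjusted p = 0.00174, and 4.27e-05 to 0.00174 over the same alternatives). With 1 library left out, the PFKFB4 interaction passed in 5 of 12 fits (0.31 to 0.55, adjusted p from 0.000684 to 0.062) and that of PFKFB3 in 11 of 12 (0.28 to 0.39, adjusted p from 0.000622 to 0.0127).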

How the results depend on the processing

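No value changed direction. Among the numbers of members called at 2-fold, the replicate block gave 2 for HIF-2a against HIF-2a R27E (1 without it), 2 for HIF-2a against HIF-2aDM (1 without it) and 1 for the IDR effect (0 without it), each through PDK4. DESeq2 also gave 2 for HIF-2a against HIF-2aDM, and fitting without the filter on low counts gave 1 for the IDR effect. By adjusted p alone the block added PDK2 for HIF-2a against HIF-2a R27E and PDK3 for the batch difference of the HIF-2α response (-0.67, adjusted p = 0.00575, against 0.18 without the block), and it changed no other call. Leaving out each library in turn gave 0 to 1 members for HIF-1b KIN against WT, 2 to 4 for HIF-2a against HIF-1a in batch 1, 0 to 1 for HIF-2a against HIF-2a R27E and 0 to 1 for the IDR effect, and all other numbers of members called stayed within 1.5 times. The cause was not tested. Of the log2 changes followed, a fit to only the groups compared ended 12 calls of 82, all in batch 1 (PDP1 4, PDK2 and PDK3 3 each, PFKFB3 2), dropping the filter ended 9 and added 1 of 99, median-ratio scaling ended 1 and added 1, and PDK3 with HIF-1a in batch 1 fell to 1.00, just under 2-fold, without the filter. With longest-transcript length, 58 of 112 isoform shares moved by more than the SD between libraries. Depth limits PDK4 and PFKFB1 most.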
